A study of Mus musculus with 10 samples.

Results

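The genes described here carry glucose into the cell, break it down to pyruvate and lactate, divert it into the pentose phosphate pathway, or sense oxygen through the hypoxia-inducible factor HIF. The 32 members were taken by name out of 24033 gene names in the expression files, and all 32 were found. They were measured by RNA-seq in microglia, the macrophages of brain tissue, which were isolated with magnetic beads against CD11b from adult C57BL/6 mice aged 3 to 5 months. The 10 libraries came from knockout mice without an intact Trem2 copy (Trem2-/-, KO; n = 3, 1 female and 2 male), heterozygous mice (Trem2+/-, Het; n = 3, 2 female and 1 male) and wild-type mice (Trem2+/+, WT; n = 4, 2 female and 2 male). The Trem2 protein is a receptor for lipids on microglia, and the study asked whether loss of 1 copy already alters these cells. Libraries are named by the numbers in the labels, which are 6, 9 and 12 for KO, 5, 8 and 11 for Het and 1, 4, 7 and 10 for WT. Neither the number of mice behind a library nor the way the allele was made is stated in the labels, so every p-value here reflects the spread among libraries, which may be partly technical. All values are RPKM, reads scaled to gene length and library total, so levels can be set side by side between genes. Other differences in how well genes are recovered are not corrected by this scaling and were not tested. Genes that share sequence with others have levels that are uncertain for that reason too.

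Glycolysis turns glucose into pyruvate in the cytosol. Its committed steps are catalysed by hexokinase, phosphofructokinase and pyruvate kinase, and most steps can be run by several isozymes that differ in kinetics and regulation. Pyruvate either enters mitochondria through pyruvate dehydrogenase, which its kinases switch off, or is reduced to lactate and exported. The pentose phosphate pathway draws glucose phosphate away to make NADPH and ribose. HIF is held low in oxygen by the prolyl hydroxylases of the Egln genes and, when stable, switches on many genes of glycolysis. In microglia and macrophages, a move towards glycolysis is known from inflammatory activation, and loss of Trem2 has been linked to altered energy metabolism.

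Trem2 itself followed its labels, at 21.4 to 28.3 RPKM in KO, 85.2 to 105 RPKM in Het and 170 to 237 RPKM in WT libraries. Recovered reads per library numbered 17204542 to 44018475, with KO libraries 9 and 12, Het library 11 and WT library 10 the deeper ones at 36258598 or more, and the other 6 at 21957927 or fewer. The 9 microglia markers used, from P2ry12, the most abundant of them, to Sall1, the least abundant, summed to 7089 to 7655 RPKM in KO, 6441 to 7538 in Het and 6601 to 7422 in WT libraries. CD11b is also carried by neutrophils, monocytes and border macrophages. The 10 neutrophil markers, led by S100a9, summed to 2290 RPKM in KO library 6, against 372 and 381 in the other KO libraries, 143 to 358 in Het and 104 to 223 in WT libraries. The 6 monocyte markers summed to 102 RPKM in KO library 6 and to 11.0 to 26.5 in the other 9 libraries. The 6 brain endothelial markers summed to 156 to 203 RPKM in KO, 114 to 171 in Het and 116 to 203 in WT libraries, and the 6 neuronal markers to 3.65 to 4.69 in KO, 3.2 to 5.61 in Het and 3.61 to 6.06 in WT libraries. The 6 border macrophage markers summed to 81.8 to 167 RPKM over all libraries, the 6 astrocyte markers to 27.8 to 47.3, the 6 oligodendrocyte markers to 19.3 to 23.5 and the 6 erythroid markers to 0.173 to 1.28, with 4 of the erythroid markers at 0 in every library. WT library 4 stood apart for the members: it was the lowest of the 10 libraries for 18 of the 31 members tested (58.1%) and the lowest for 23.6% of all 13621 genes tested. In bulk RNA, fewer cells of a type and less RNA per cell cannot be told apart.

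Several glycolysis genes have processed pseudogenes, copies of their messenger RNA inserted elsewhere in the genome, and short reads from an identical stretch cannot be placed on the gene alone. To show how close these copies are, the first 90 coding bases of 3 members are set beside their nearest annotated copy, in GENCODE M21 transcripts (GRCm38). Gapdh (chr6:125161715-125166467, minus strand) and its copy Gm7336 (chr7:51746647-51747878, plus strand) were identical over the stretch, as were Pgam1 (chr19:41911923-41918660, plus strand) and Pgam1-ps2 (chr7:27469771-27470535, minus strand). Ldhb (chr6:142490249-142507957, minus strand) and Gm5514 (chr19:21937380-21938381, plus strand) differed at 3 bases, which are in capitals.
Gapdh: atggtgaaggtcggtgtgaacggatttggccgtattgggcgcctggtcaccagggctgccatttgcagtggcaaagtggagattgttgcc
Gm7336: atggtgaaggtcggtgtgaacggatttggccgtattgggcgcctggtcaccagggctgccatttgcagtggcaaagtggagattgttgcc
Pgam1: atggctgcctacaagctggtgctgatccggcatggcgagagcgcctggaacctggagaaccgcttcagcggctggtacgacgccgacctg
Pgam1-ps2: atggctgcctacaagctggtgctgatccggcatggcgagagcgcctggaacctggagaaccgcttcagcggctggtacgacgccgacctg
Ldhb: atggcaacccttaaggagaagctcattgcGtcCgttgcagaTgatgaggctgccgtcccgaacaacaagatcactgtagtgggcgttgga
Gm5514: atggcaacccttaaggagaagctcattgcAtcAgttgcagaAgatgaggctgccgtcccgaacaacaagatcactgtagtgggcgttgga

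Over whole transcripts, 82.5% of the 50-base windows of Gapdh also occurred in another annotated gene, in 222 genes of which 213 are pseudogenes. The share was 72.2% for Eno1, 68.0% for Pgk1, 41.5% for Pgam1, 34.4% for Pkm, 27.0% for Ldhb, 25.3% for Gpi1, 16.6% for Ldha and 10.7% for G6pdx, whose main partner was the protein-coding copy G6pd2. In all, 3 members shared at least 50% of their windows and 13 at least 10%, against 6.1% and 22.0% of 19675 protein-coding genes. At the other end, 15 members shared under 1%, among them Slc2a3, Hk2, Hk3, Slc16a1, Pdk1 and Egln1. The windows shared by Pfkp (17.1%) and Pdha1 (16.9%) lay mostly in overlapping neighbour genes, Pitrm1 and Map3k15, and 5.07% of the windows of Hif1a lay in the antisense gene Gm15283. The sources used here do not give how the authors' counting treated reads with several matches, or whether it used strand. The levels of these genes are therefore uncertain, and the part of shared sequence in them was not tested.

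**Figure D1:**
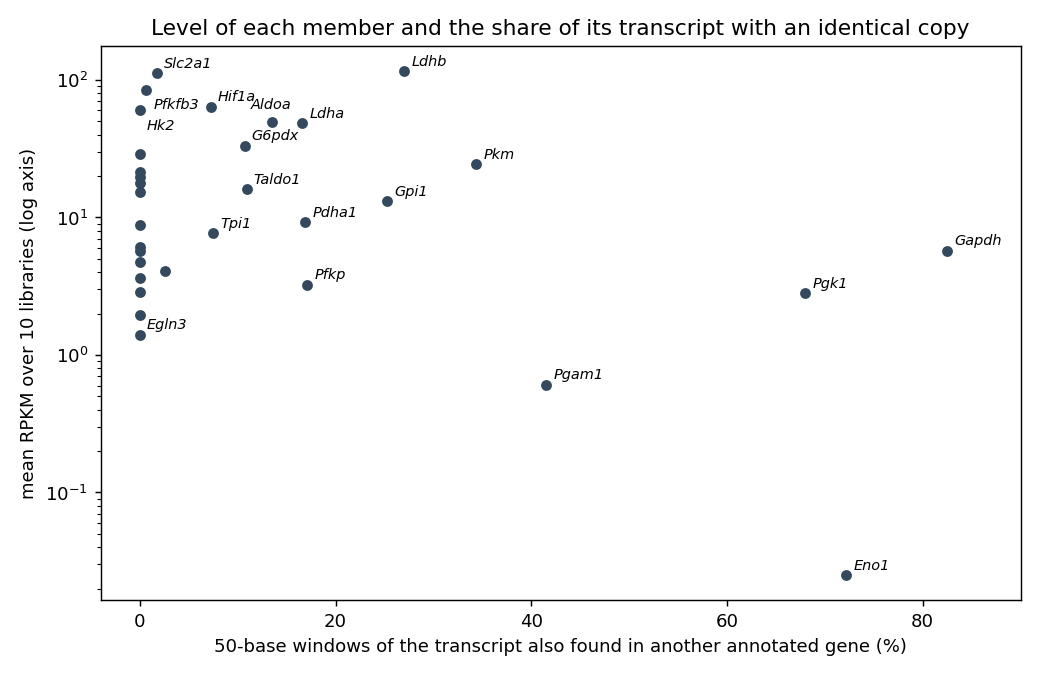
Each point is 1 of the 32 members, placed by the percent of its 50-base transcript windows that occur in another annotated gene (horizontal axis) and by its mean RPKM over the 10 libraries (vertical log axis). Gapdh, Eno1, Pgk1 and Pgam1 combine shared windows of 41.5% to 82.5% with mean levels of 5.73 RPKM or less, while Ldhb shares 27.0% at 116 RPKM.

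Glucose entry and the upper steps held both high and low genes. Slc2a1, the glucose transporter GLUT1, was the member with the highest level after Ldhb, with a mean of 112 RPKM over the 10 libraries. It stood at 106, 113 and 118 RPKM in KO libraries, at 93.4, 132 and 148 in Het libraries and at 106, 93.8, 127 and 80.2 in WT libraries. The genotypes overlapped, and the lowest and highest of all 10 values lay in WT and Het libraries. Slc2a1 is also known from brain endothelium, whose markers are given above. Their part in the level was not tested. Slc2a3, the high-affinity transporter GLUT3 known from neurons and neutrophils, had a mean of 3.65 RPKM. Among the hexokinases, which trap glucose as its phosphate, Hk2 led with 60.7 RPKM, ahead of Hk3 with 19.6 and Hk1 with 4.08. Gpi1, which turns glucose phosphate into fructose phosphate, averaged 13.1 RPKM. The phosphofructokinases were low, at 5.75 RPKM for Pfkl, 3.25 for Pfkp and 1.96 for Pfkm. Pfkfb3, which makes an activator of phosphofructokinase, averaged 85.2 RPKM, and its relative Pfkfb4 6.13 RPKM.

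Levels of the lower steps differed widely between genes. Aldolase Aldoa averaged 49.6 RPKM and the M-type pyruvate kinase Pkm 24.5 RPKM, whereas triose phosphate isomerase Tpi1 averaged 7.72, Gapdh 5.73, the phosphoglycerate kinase Pgk1 2.82 and the mutase Pgam1 0.608. Enolase Eno1 was listed at 0 to 0.0583 RPKM in KO, 0 to 0.0152 in Het and 0.025 to 0.061 in WT libraries, which is 0 to 4 reads a library, so it did not reach the filter on low values. Gapdh stood at 4.33, 5.94 and 8.43 RPKM in KO libraries, 4.12, 4.36 and 7.02 in Het libraries and 6.2, 5.87, 4.92 and 6.12 in WT libraries. Its coefficient of variation over all libraries (CV, SD over mean) was 23.6%, against 4.81% for Pkm, the smallest of any member tested. The 4 genes with the largest shares of windows in other genes, Gapdh, Eno1, Pgk1 and Pgam1, were the 4 lowest of this group. Among related genes outside the members, Eno3 averaged 12.1 RPKM and Eno2 1.25, both above Eno1. Pgam2 averaged 3.04 RPKM, above Pgam1.

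At the pyruvate and lactate end, Ldhb, which encodes the heart-type lactate dehydrogenase subunit, averaged 116 RPKM and Ldha, the muscle-type subunit, 48.7 RPKM. The lactate transporter Slc16a1 (MCT1) averaged 15.2 RPKM and Slc16a3 (MCT4) 2.85 RPKM. Pdk1, a kinase that switches pyruvate dehydrogenase off, averaged 21.6 RPKM, Pdk3 4.73 RPKM, and Pdha1, the catalytic subunit of the dehydrogenase, 9.24 RPKM. Of the pentose phosphate enzymes, G6pdx, which makes the first NADPH of the pathway, averaged 33.2 RPKM, Pgd, which makes the next, 29.2, transaldolase Taldo1 16.1 and transketolase Tkt 8.84. Hif1a, the oxygen-regulated HIF subunit, averaged 63.8 RPKM, Egln1, the main HIF prolyl hydroxylase, 17.9, and Egln3 1.4. Egln3 varied most among the members tested, with a CV of 51.3%. Over the 31 members tested the median CV was 13.9%, against 17.9% over all genes tested, which were not matched to the members for level.

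**Figure D2:**
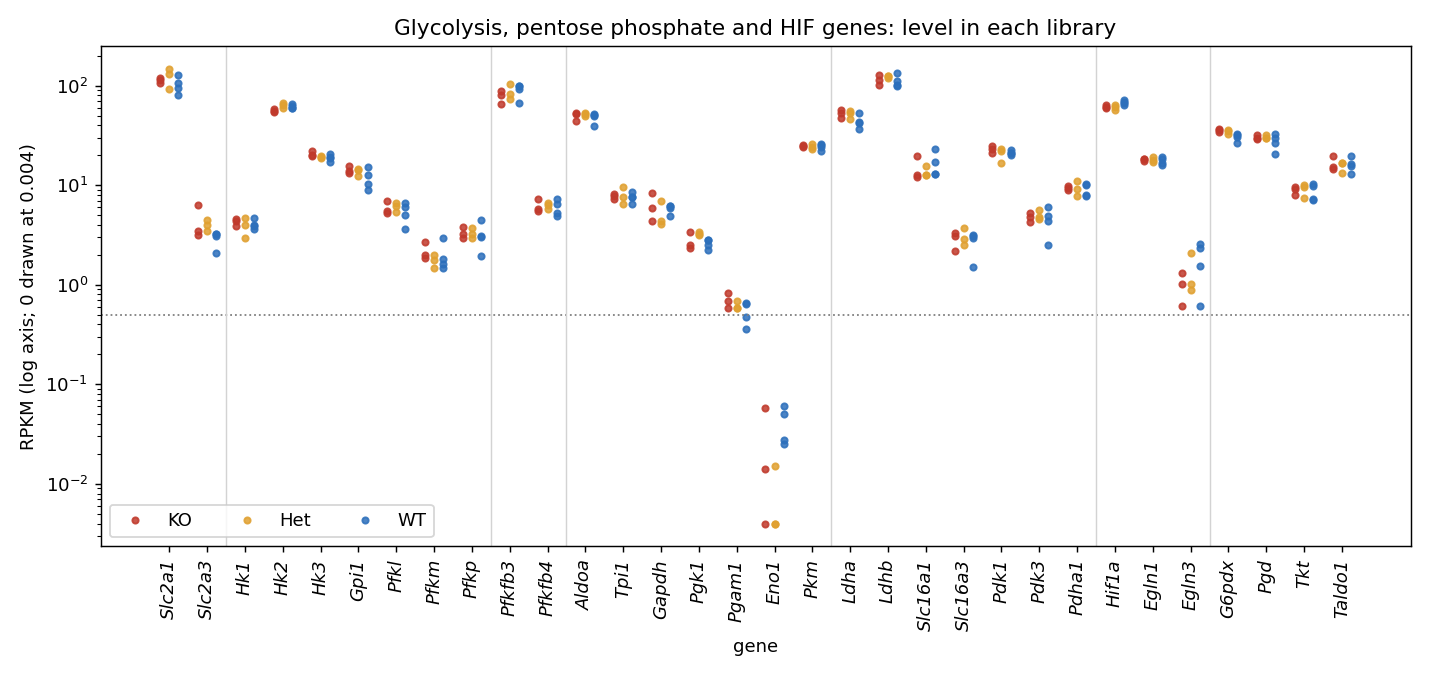
RPKM of each of the 32 members (log axis) in the 3 KO (red), 3 Het (orange) and 4 WT (blue) libraries, 1 point a library, with grey lines between the roles and a dotted line at 0.5 RPKM, the filter. 5 members average 50 RPKM or more, 11 lie from 10 to under 50, 14 from 1 to under 10, and Pgam1 and Eno1 lie under 1 RPKM.

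Isozyme choice was read as the share of each gene in the summed RPKM of the members of its family, within each library. Relatives that are not members were left out of these sums. In all 10 libraries Slc2a1 made up 94.4% to 97.8% of the RPKM of Slc2a1 and Slc2a3, and Hk2 67.4% to 74.7% of Hk1, Hk2 and Hk3. Pfkfb3 held 92.0% to 94.6% of its pair with Pfkfb4, and Slc16a1 77.2% to 94.0% of its pair with Slc16a3. Pdk1 held 77.7% to 90.2% of its pair with Pdk3, and Egln1 86.6% to 97.0% of its pair with Egln3. Ldha held the smaller part of its pair, 26.6% to 35.8%, with Ldhb at 64.2% to 73.4%. Ldha shared 16.6% and Ldhb 27.0% of their windows with other genes, so this share is uncertain. The size of that uncertainty was not tested, and the window percents do not give it. The phosphofructokinases were the most mixed family, with mean shares of 52.4% for Pfkl, 29.6% for Pfkp and 18.0% for Pfkm. Among the members, the leading gene was thus the same in every library for all 8 families. Of relatives outside the members, Slc16a6, Slc16a7 and Slc16a4 averaged 34.1, 23.1 and 7.51 RPKM, against 15.2 for Slc16a1. Pdk2 and Pdk4 averaged 11.6 and 0.803 RPKM, against 4.73 for Pdk3. Egln2 averaged 9.09 RPKM, against 1.4 for Egln3. Among listed glucose and fructose transport genes, Slc2a5, Slc2a9, Slc2a8, Slc2a6 and Slc2a4 averaged 66.1, 5.33, 5.14, 2.98 and 0.173 RPKM, against 3.65 for Slc2a3. Pfkfb2 and Pfkfb1 averaged 5.77 and 0.634 RPKM, against 6.13 for Pfkfb4.

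Genotypes were compared in 24 exact permutation tests of the share (8 families, 3 comparisons, two-sided), with Benjamini-Hochberg adjustment. With this many tests and so few libraries, a single share could not pass the threshold after adjustment whatever its values, and the lowest adjusted p was 0.686. The shares are therefore given as a description. The Hk2 share was 68.8%, 71.0% and 67.4% in KO libraries, 74.7%, 71.7% and 74.1% in Het libraries and 71.8%, 74.2%, 72.7% and 72.8% in WT libraries. All 3 KO values lay below every Het and WT value. The mean was 69.1 ± 1.83% in KO (SD, n = 3), 73.5 ± 1.61% in Het (SD, n = 3) and 72.9 ± 0.983% in WT libraries (SD, n = 4). The difference was -3.78 percentage points for KO minus WT (exact permutation p = 0.0286, the smallest that 3 against 4 libraries can give; adjusted p = 0.686) and -4.41 points for KO minus Het (exact permutation p = 0.1, the smallest for 3 against 3; adjusted p = 0.686). Among the shallower libraries the Hk2 share was 68.8% in 1 KO and 71.8% to 74.2% in 3 WT libraries, and among the deeper ones 67.4% and 71.0% in 2 KO libraries and 72.8% in 1 WT library. The counterpart was Hk3, known from myeloid cells and neutrophils, whose share averaged 25.6 ± 1.42% in KO (SD, n = 3), 22.0 ± 0.622% in Het (SD, n = 3) and 22.4 ± 0.983% in WT libraries (SD, n = 4). Hk3 held 25.7%, 24.2% and 27.0% of the family in KO libraries 6, 9 and 12. Their neutrophil markers summed to 2290, 372 and 381 RPKM, against 143 to 358 in Het and 104 to 223 in WT libraries, and their part in the share was not tested. The Ldha share averaged 31.6 ± 3.62% in KO and 28.0 ± 1.5% in WT libraries (SD, n = 3 and 4), a difference of 3.57 points (exact permutation p = 0.114; adjusted p = 0.686).

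**Figure D3:**
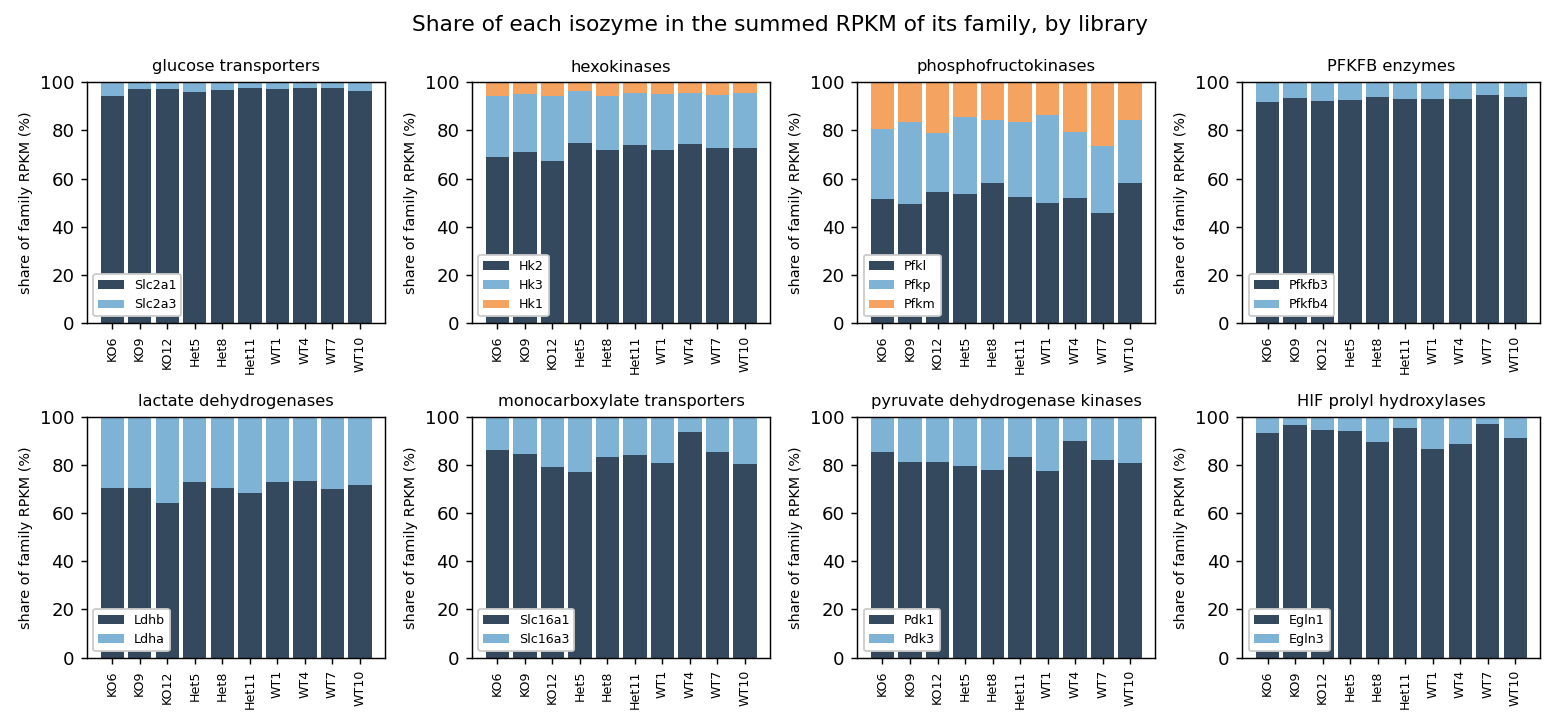
Stacked bars give the percent of summed family RPKM held by each isozyme in each library, KO libraries on the left, then Het, then WT, for 8 families of members. Hk2 reaches 67.4% to 71.0% in KO, 71.7% to 74.7% in Het and 71.8% to 74.2% in WT libraries, and Ldhb is the larger part of its pair in all 10 libraries.

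The upstream sequence of the lactate dehydrogenase pair is shown because Ldha is a textbook HIF target. In RefSeq promoters (GRCm38.p6), the 250 bases before the start were searched on both strands for the HIF core motifs ACGTG and GCGTG, capitals marking each match. Ldha (chr7:46845554-46845803, plus strand) held 5 matches, of which 4 are overlapping pairs in the palindrome CACGTG, and Ldhb (chr6:142507958-142508207, minus strand) held 1. Ldha has 2 promoter entries, of which the first is shown, and the other held 1 match.
Ldha: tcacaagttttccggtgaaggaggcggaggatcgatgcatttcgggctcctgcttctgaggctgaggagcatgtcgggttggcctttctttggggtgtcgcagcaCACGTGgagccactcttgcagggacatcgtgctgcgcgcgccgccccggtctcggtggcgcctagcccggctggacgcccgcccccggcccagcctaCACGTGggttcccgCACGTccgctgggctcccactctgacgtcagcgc
Ldhb: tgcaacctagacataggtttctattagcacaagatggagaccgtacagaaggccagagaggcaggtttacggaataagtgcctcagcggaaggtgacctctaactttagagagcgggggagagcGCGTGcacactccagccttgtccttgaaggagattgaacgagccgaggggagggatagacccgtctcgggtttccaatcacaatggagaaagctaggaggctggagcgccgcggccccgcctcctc
With the 50 bases after the start included, 29 of the 31 members that have a promoter entry (93.5%) held a match, as did 46.7% of all 27025 genes. Counted by promoter, 36 of 44 of the members' promoters (81.8%) and 43.8% of all 32851 promoters held one. All genes were not matched to the members for base content or level, so the difference in these percents is no measure of enrichment. A match is a description of the letters and not of binding.

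KO was compared with WT to see what loss of both copies did to these genes. By limma, with p adjusted over all 13621 genes, 0 of the 31 members tested passed the threshold of 0.05 (lowest adjusted p = 0.969), where 0.00734% of all tested genes were called, that is Trem2 alone. At an unadjusted p under 0.05 there were 3 members, all with a positive fold change (9.68%), against 5.13% of all tested genes in either direction and 3.32% with a positive fold change. Without WT library 4 this number was 1 member, with a negative fold change, against 793 of all 13538 genes tested in that fit. Without KO library 12 it was 0 members, against 563 of 13519 genes. limma-voom on recovered reads also called 0 members, with 3 at an unadjusted p under 0.05, against 695 of all 13621 genes tested. The log2 fold change was positive for 26 and negative for 5 members, with a median of 0.09, against 57.2% positive and a median of 0.03 over all genes tested. Without WT library 4, which was the lowest for most members, 17 were positive and 14 negative with a median of 0.03. Without KO library 6, 22 were positive and 9 negative with a median of 0.15. The 95% interval lay within 1 log2 unit of 0 for 30 of 31 members, the exception being Egln3 (-1.35 to 0.30).

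The pentose phosphate enzyme G6pdx (chrX:74409483-74429194, minus strand, GRCm38) had the smallest p. It stood at 34.3, 36.7 and 35.9 RPKM in KO libraries, 35.8, 34.8 and 32.6 in Het libraries and 30.4, 26.3, 32.0 and 33.0 in WT libraries. Every KO value lay above every WT value, and WT library 4 was the lowest. Its mean was 35.6 ± 1.22 RPKM in KO and 30.4 ± 2.98 RPKM in WT libraries (SD, n = 3 and 4; log2 0.23, SE 0.10, limma adjusted p = 0.969). The log2 fold change was 0.15 without WT library 4. Members whose groups did not overlap numbered 2 of 31 (6.45%), G6pdx above and Hk2 below, against 4.59% of all tested genes. The log2 fold changes of the 4 pentose phosphate genes were all positive, with a median of 0.14. Leaving out WT library 4 turned that of Taldo1 to -0.02 and the median to 0.04. The 7 further pentose phosphate genes listed for comparison had 2 positive and 5 negative fold changes, with a median of -0.12.

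Ldha (chr7:46841475-46855627, plus strand) stood at 53.1, 47.6 and 56.6 RPKM in KO libraries, 46.7, 52.7 and 55.9 in Het libraries and 41.8, 36.3, 43.6 and 53.2 in WT libraries. WT library 10 reached into the KO range. The mean was 52.4 ± 4.54 RPKM in KO and 43.7 ± 7.04 RPKM in WT libraries (SD, n = 3 and 4; log2 0.29, SE 0.13, limma adjusted p = 0.969). Within the deeper libraries the log2 ratio of mean levels was -0.03, and within the shallower ones 0.39. The shallower class held 1 KO library and the deeper class 1 WT library. With the depth class as a term in the fit the log2 fold change was 0.21.

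Slc2a3 (chr6:122727809-122801640, minus strand) stood at 6.28, 3.15 and 3.47 RPKM in KO libraries, 3.99, 4.5 and 3.43 in Het libraries and 3.22, 2.08, 3.27 and 3.1 in WT libraries. The high KO value was that of library 6, the one with the high neutrophil and monocyte markers, and the low WT value that of library 4. The other 2 KO libraries lay at or near the WT values. The mean was 4.3 ± 1.72 RPKM in KO and 2.92 ± 0.562 RPKM in WT libraries (SD, n = 3 and 4; log2 0.49, SE 0.22, limma adjusted p = 0.969). Without KO library 6 the log2 fold change was 0.19. The part of other myeloid cells in this value was not tested.

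Gpi1 (chr7:34201330-34230336, minus strand) stood at 13.4, 15.5 and 13.9 RPKM in KO libraries, 12.4, 14.2 and 14.4 in Het libraries and 15.1, 8.99, 10.4 and 12.6 in WT libraries, with overlap through WT library 1 (log2 KO over WT 0.31, SE 0.15, limma adjusted p = 0.977; 0.19 without WT library 4). Hk2 (chr6:82725025-82774454, minus strand) stood at 54.3, 58.2 and 55.8 RPKM in KO libraries, 64.3, 60.0 and 67.5 in Het libraries and 59.4, 59.5, 62.7 and 65.8 in WT libraries. All KO values were below all Het and WT values. The log2 fold change of KO over WT was -0.13 (SE 0.084, limma adjusted p = 0.982). Without KO library 6 it was -0.08. Hif1a (chr12:73901375-73947530, plus strand) stood at 61.2, 63.3 and 59.7 RPKM in KO libraries, 61.0, 57.5 and 64.4 in Het libraries and 68.5, 63.2, 67.5 and 71.4 in WT libraries. The highest KO value passed the lowest WT value narrowly, that of library 4 (log2 KO over WT -0.12, SE 0.08, limma adjusted p = 0.986).

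**Figure D4:**
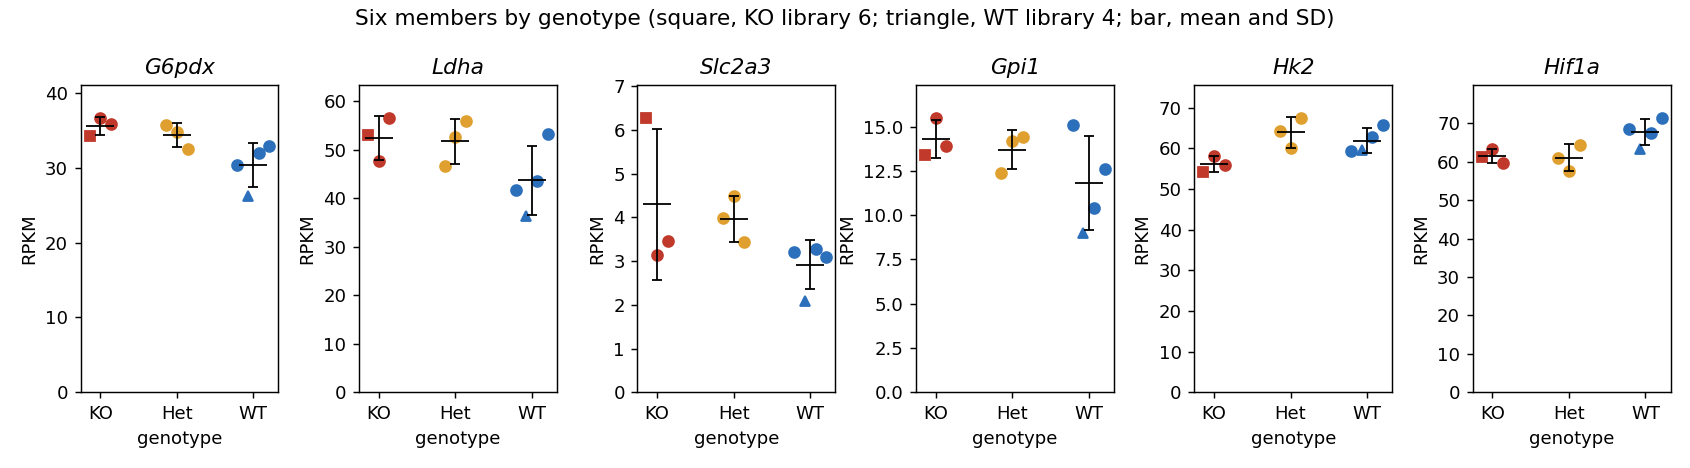
RPKM of the 6 members with the smallest p in KO against WT, 1 point a library, with KO, Het and WT from left to right and the black bar giving mean and SD. KO library 6 (square) is the high Slc2a3 point at 6.28 RPKM, and WT library 4 (triangle) is the lowest WT point of G6pdx, Ldha, Slc2a3, Gpi1 and Hif1a.

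By role, the 13 glycolysis enzymes tested had 12 positive and 1 negative log2 fold changes in KO against WT (median 0.08), the 7 pyruvate and lactate genes 6 and 1 (median 0.14), both glucose transporters positive values, and the 3 HIF genes 1 positive and 2 negative (median -0.12). Without WT library 4 the glycolysis enzymes had 6 positive and 7 negative values (median -0.01) and the pyruvate and lactate genes 5 and 2 (median 0.03). Pfkfb3 stood at 65.9, 80.1 and 88.9 RPKM in KO libraries, 72.7, 105 and 83.1 in Het libraries and 99.0, 66.7, 92.2 and 98.1 in WT libraries. Its log2 fold change in KO against WT was -0.19 with all libraries. Without WT library 4, where it was at 66.7 RPKM, the change was -0.39 with a limma adjusted p = 0.787, the lowest of any member under that setting. Without KO library 6, where it was at 65.9 RPKM, it was -0.05. Pfkfb3 was chosen after its values were seen.

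**Figure D5:**
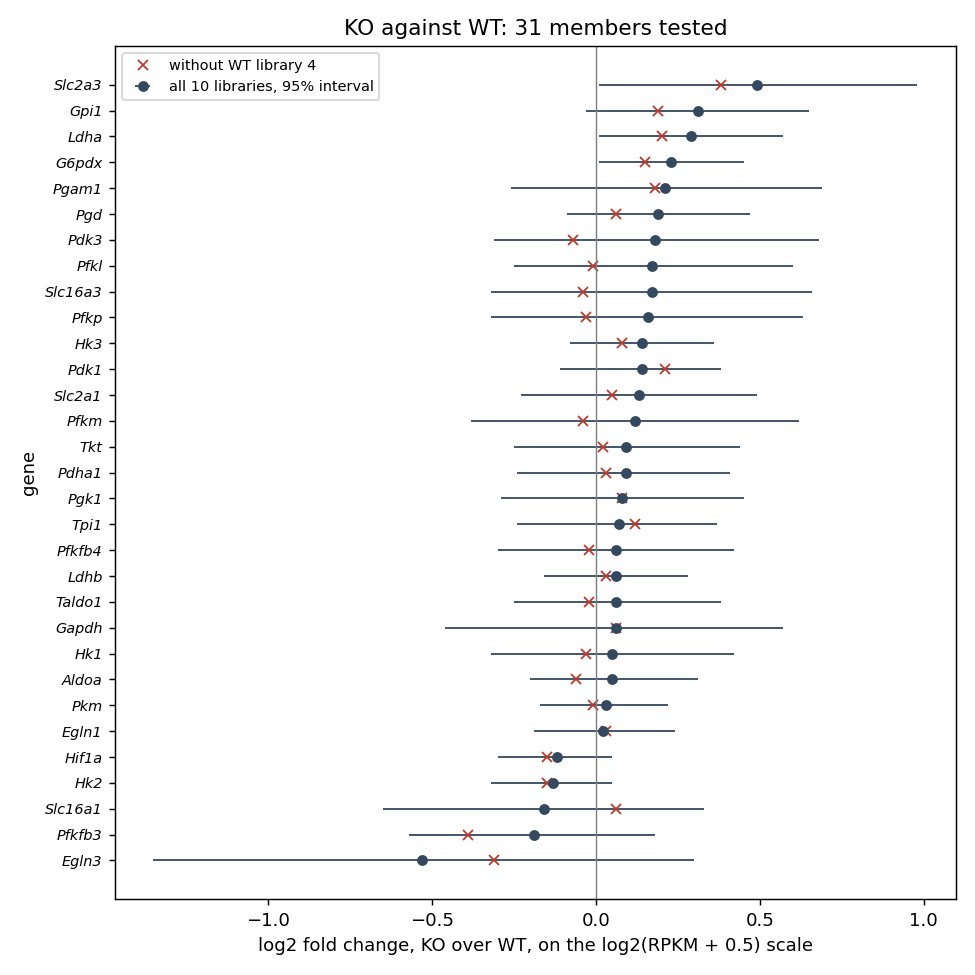
Log2 fold change of KO over WT for the 31 members tested (points, with 95% intervals, all 10 libraries) and the same without WT library 4 (crosses), on the log2(RPKM + 0.5) scale. With all libraries 26 points lie right of 0, and without WT library 4 17 crosses do.

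Het was compared with WT because the study concerns loss of 1 copy. By limma 0 of 31 members were called (lowest adjusted p = 1.0), and 0% of all tested genes were called. Trem2 itself was not called in this fit, though it stood at 85.2 to 105 RPKM in Het and 170 to 237 RPKM in WT libraries. A member that was not called may therefore still differ. None of the members had an unadjusted p under 0.05, against 2.75% of all tested genes. limma-voom called 0 members and had 1 at an unadjusted p under 0.05, against 336 of all 13621 genes tested. The log2 fold change was positive for 22 and negative for 9 members (median 0.05; over all genes tested 50.3% positive, median 0.00), and 14 were positive and 17 negative without WT library 4. The 95% intervals of 30 of 31 members lay within 1 log2 unit of 0. This comparison and that of KO share the WT libraries, so their fold changes are not independent. Hif1a, with the values above, averaged 61.0 ± 3.48 RPKM in Het and 67.6 ± 3.39 RPKM in WT libraries (SD, n = 3 and 4; log2 -0.16, SE 0.08, limma adjusted p = 1.0). Slc2a1 averaged 124 ± 28.0 RPKM in Het and 102 ± 19.7 RPKM in WT libraries (SD, n = 3 and 4; log2 0.31, SE 0.16, limma adjusted p = 1.0). This log2 fold change was 0.15 without Het library 11 and 0.48 without Het library 5. Ldha averaged 51.8 ± 4.66 RPKM in Het and 43.7 ± 7.04 RPKM in WT libraries (SD, n = 3 and 4; log2 0.23, SE 0.13, limma adjusted p = 1.0). Slc2a3 and Pgk1 were the members, 2 of 31 (6.45%), whose Het values all lay above the WT values, against 2.23% of all tested genes above and 4.53% not overlapping in either direction. Pgk1 stood at 3.35, 3.14 and 3.25 RPKM in Het libraries and at 2.24, 2.49, 2.79 and 2.81 in WT libraries.

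KO was set against Het to see what loss of the remaining copy adds. By limma 0 of 31 members were called (lowest adjusted p = 0.999), where 0.00734% of all tested genes were called. At an unadjusted p under 0.05 there were 0 members, against 3.35% of all tested genes. limma-voom gave 0 members on both counts, against 406 of all 13621 genes at an unadjusted p under 0.05. The log2 fold change was positive for 22 and negative for 9 members (median 0.05; over all genes tested 57.1% positive, median 0.03). Without KO library 12, 15 were positive and 16 negative (median -0.01), and 17 were positive and 14 negative without Het library 5. Hk2, with a mean of 56.1 ± 1.97 RPKM in KO and 63.9 ± 3.75 RPKM in Het libraries (SD, n = 3 each), had the smallest p (log2 -0.18, SE 0.092, limma adjusted p = 0.999; -0.11 without KO library 6). Pdk1 stood at 25.0, 21.1 and 23.2 RPKM in KO libraries, 21.9, 16.8 and 22.9 in Het libraries and 21.1, 22.8, 20.1 and 21.3 in WT libraries, and Het library 8 was the lowest of all 10 (log2 KO over Het 0.23, SE 0.12, limma adjusted p = 0.999; 0.08 without that library). Hk3 stood at 20.2, 19.8 and 22.3 RPKM in KO libraries, 18.8, 19.0 and 19.6 in Het libraries and 19.4, 17.0, 18.9 and 20.7 in WT libraries (log2 KO over Het 0.14, SE 0.11, limma adjusted p = 0.999; 0.08 without KO library 12). The 95% intervals of 30 of 31 members lay within 1 log2 unit of 0. Hk3 above and Hk2 below were the members whose KO and Het values did not overlap (6.45%), against 7.42% of all tested genes.

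Sex entered the fit as the other labelled factor. In male against female libraries 0 of 31 members were called by limma (lowest adjusted p = 0.919), where 0.044% of all tested genes were called. At an unadjusted p under 0.05 there were 0 members, against 5.34% of all tested genes. limma-voom gave 0 members on both counts, against 633 of all 13621 genes at an unadjusted p under 0.05. The log2 fold change was positive for 8 and negative for 23 members (median -0.10; over all genes tested 43.3% positive, median -0.03). No member separated the sexes, as against 0.903% of all tested genes. Ldhb had the smallest p, with 113, 102, 126, 100 and 102 RPKM in male libraries and 128, 125, 120, 112 and 135 RPKM in female libraries (log2 male over female -0.19, SE 0.086, limma adjusted p = 0.919; -0.13 without WT library 10). Slc16a3 ranged from 1.5 to 3.33 RPKM with a median of 2.51 in male libraries and from 2.9 to 3.76 RPKM with a median of 3.12 in female libraries (log2 -0.34, SE 0.19, limma adjusted p = 0.922; -0.19 without WT library 4). Pdk1 ranged from 16.8 to 23.2 RPKM with a median of 21.1 in male libraries and from 21.1 to 25.0 RPKM with a median of 21.9 in female libraries (log2 -0.16, SE 0.093, limma adjusted p = 0.922; -0.06 without Het library 8). KO held 1 female library, so a difference of the KO effect between sexes rests on that library, KO 6. The interaction test of genotype and sex called 0 members (lowest adjusted p = 0.157), with 4 at an unadjusted p under 0.05, against 14.9% of all genes tested.

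The same pathways hold 72 further genes that were listed for comparison, of which 67 were tested. By limma 0 of them were called in any of the 4 comparisons. In KO against WT 38 log2 fold changes were positive and 29 negative (median 0.04), against 57.2% positive over all genes tested. Of these, 2 positive and 2 negative ones had an unadjusted p under 0.05, where 5.13% of all tested genes did. Adpgk, an ADP-dependent glucokinase, stood at 6.39, 4.33 and 6.49 RPKM in KO libraries, 5.93, 3.95 and 3.51 in Het libraries and 3.32, 2.15, 4.25 and 4.63 in WT libraries (log2 KO over WT 0.68, SE 0.25, limma adjusted p = 0.942). KO library 9 lay within the WT range. Bnip3, a mitophagy receptor and HIF target, stood at 3.21, 3.42 and 2.99 RPKM in KO libraries, 3.14, 1.97 and 3.54 in Het libraries and 2.83, 1.86, 2.13 and 2.15 in WT libraries, without overlap of KO and WT (log2 KO over WT 0.49, SE 0.18, limma adjusted p = 0.942). Kdm3a, a histone demethylase and HIF target, stood at 38.8, 44.0 and 40.7 RPKM in KO libraries, 46.3, 45.7 and 46.4 in Het libraries and 46.6, 53.2, 46.0 and 46.7 in WT libraries (log2 KO over WT -0.23, SE 0.087, limma adjusted p = 0.942). Slc2a6, a further member of the glucose transporter family, named after its values were seen, stood at 1.84, 2.92 and 3.44 RPKM in KO libraries, 1.67, 2.89 and 2.56 in Het libraries and 3.86, 3.97, 3.8 and 2.84 in WT libraries (log2 KO over WT -0.44, SE 0.19, limma adjusted p = 0.969). These 2 HIF targets were named for their small p. Both had KO values on 1 side of all WT values, Bnip3 above and Kdm3a below. Over all tested genes 4.59% did so in either direction, but genes picked for small p cannot be measured against that share. Mxi1, a further listed HIF target named after its values were seen, stood at 14.2, 14.1 and 14.7 RPKM in KO libraries. In WT libraries it stood at 13.1, 11.8, 13.8 and 13.8 RPKM, also without overlap. Of the 17 HIF targets outside glycolysis that were tested, 13 fold changes were positive and 4 negative in KO against WT, 1 in each direction at an unadjusted p under 0.05, and without WT library 4 the signs were 11 positive and 6 negative. In Het against WT, 2 positive and 2 negative fold changes of the 67 further genes had an unadjusted p under 0.05, against 2.75% of all tested genes. The 2 positive ones, Egln2 and Arnt, were among the 11 genes of HIF subunits and oxygen sensing. That list and both genes were named after their values were seen. Positive fold changes at such a p were found in 1.4% of all tested genes. Egln2 had a log2 Het over WT of 0.33 with all libraries and 0.12 without Het library 8. Arnt, the partner subunit of Hif1a, stood at 27.3, 25.1 and 26.8 RPKM in KO libraries, 35.2, 31.3 and 31.5 in Het libraries and 27.4, 21.8, 23.3 and 28.8 in WT libraries. Every Het value was above every KO and WT value (log2 Het over WT 0.34, SE 0.096, limma adjusted p = 1.0). Het values lay above all WT values in 2.23% of all tested genes.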

How the data were processed

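RNA was extracted with an RNeasy kit, libraries were made with the Ovation RNA-seq system v2 kit and sequenced on an Illumina HiSeq4000, per the labels' protocols. The deposited files hold RPKM computed by the authors, on a linear scale, 1 file a library. The submitters' processing notes name STAR, HTSeq, edgeR, limma and mm10; the sources used here give no versions or settings.

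Of 24060 names per file, 27 had become dates and were left out. In all 19983 genes above 0, values were whole multiples of 1 read within 0.0005 reads or a relative 3e-07, which gave the recovered reads. The 13621 genes that reached 0.5 RPKM in 3 or more libraries were fitted as log2(RPKM + 0.5) with genotype and sex in limma 3.58.1 (limma-trend, R 4.3.3). P-values were two-sided and adjusted by Benjamini-Hochberg over all 13621 genes, and called at 0.05. Fold changes on this scale understate those of low genes. Shares were compared with exact permutation tests (Python 3.11.15, scipy 1.17.1). The fit was tested on data simulated with the same spread setting for every gene. That test does not measure its power in the real libraries.

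Members and lists were chosen with earlier results of these data known. Named with full statistics were the 6 members with the smallest p in KO against WT and the 3 in each other comparison. So were 3 of the listed further pathway genes. Pfkfb3, Slc2a6, Mxi1, Egln2 and Arnt were named after their values were seen. One listed microglia marker is not reported here. Windows of 50 bases were compared over GENCODE M21 transcripts, whose annotation may not be the authors'. Promoters are from RefSeq (GRCm38.p6). Alternatives tried were other pseudocounts, no filter, TMM scaling, leaving out the sex term or each library in turn and, chosen after seeing the data, limma-voom on recovered reads, a depth term and the interaction with sex.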

Additional observations from a re-analysis of the deposited data

Results flagged for a closer look

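Of 40 values tested for a library far from the rest of the 4 WT libraries, 2 stood out, both low in WT library 4. By chance about 1 in 20 such values is picked out. Slc2a3 was at 2.08 RPKM in WT library 4, against 3.1 to 3.27 RPKM in the other WT libraries (gap over range 0.859, where 0.829 is the limit for 4 samples). Slc16a3 was at 1.5 RPKM in WT library 4, against 2.94 to 3.15 RPKM in the other WT libraries (gap over range 0.875). Without WT library 4 the log2 fold change of KO over WT was 0.38 for Slc2a3, against 0.49 with all libraries, and -0.04 for Slc16a3, against 0.17 with all libraries.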

How the results depend on the processing

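No member was called under any alternative that was run. A single isozyme share could not pass after adjustment at these numbers of libraries, and the counts of shares called say nothing of stability. In KO against WT, the number of genes called over all genes was 1, and it ranged from 1 to 3 when each library was left out in turn: the 3, without KO library 6, were Trem2, Treml2 and Mir5104. It was 2 with limma-voom on recovered reads (Trem2 and Treml2) and 2 with a term for deeper and shallower libraries (Trem2 and Camp). In Het against WT it was 0, and 1 with limma-voom (Trem2). The causes were not tested. TMM scaling left 24 of 31 members positive in KO against WT, and 49.6% of all genes in place of 57.2%. The share of all genes with a positive value ran from 53.6% to 58.3% over the fits without 1 library. The members at an unadjusted p under 0.05 in KO against WT numbered 0 with TMM scaling and 1 without the sex term. Over all 13621 genes these counts were 692 and 547. When each library was left out in turn there were 0 to 3 such members, and 563 to 867 such genes over all genes. In KO against Het the members with a positive value numbered 17 of 31 without the sex term, against 22. The planned edgeR and DESeq2 fits were not run; limma-voom on the recovered reads was run in their place. No paired analysis was possible because the genotypes share no library number.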
